A study of Mus musculus with 14 samples.

Results

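The genes described here encode 10 inhibitory or activating receptors, several of them known to affect how strongly mast cells respond when the IgE receptor is engaged. They are the low-affinity IgG receptors Fcgr2b and Fcgr3, the leukocyte immunoglobulin-like receptors Lilrb4a and Pirb, the CD300 receptors Cd300a, Cd300lf and Cd300lb, the CD200 receptor family gene Cd200r3, Milr1 and Cd33. They were chosen by name, and all 10 were found among the 55487 genes of the count table. The study sequenced RNA from 14 libraries, each from up to 100 mast cells sorted from the ears of mice. Resident mast cells of non-treated mice made up libraries 1 to 5. The others were 5 of resident mast cells from mice treated with MC903 (libraries 6 to 10), and 4 (libraries 11, 13, 14 and 15) whose titles call them bone marrow mast cells, also from the ears of treated mice. MC903, or calcipotriol, resembles vitamin D and produces a dermatitis resembling atopic dermatitis when applied to mouse skin. The sort protocol names resident and integrin β7+ mast cells, so the bone marrow group was taken to be the integrin β7+ cells. The labels used here give no strain, sex, age, duration of treatment or animal for any library. Whether the libraries of a group came from separate mice is therefore unknown, and p-values set differences between groups against the spread between these libraries.

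Mast cells release histamine and proteases when antigen crosslinks IgE on the high-affinity receptor FcεRI. Inhibitory receptors limit this by carrying an immunoreceptor tyrosine-based inhibitory motif (ITIM) in the cytoplasmic tail, which recruits the phosphatases SHP-1, SHP-2 or SHIP-1 once its tyrosine is phosphorylated by kinases such as Lyn. Activating relatives have short tails and signal through the adaptors FcRγ (encoded by Fcer1g) or DAP12 (encoded by Tyrobp). FcγRIIB, the product of Fcgr2b, is the inhibitory IgG receptor, and FcγRIII, the product of Fcgr3, is its activating counterpart.

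The codons of this motif are shown because the tyrosine they encode is the one that recruits the phosphatases. In the longest reading frame of each gene, a script searched the part after the most hydrophobic stretch of 19 residues. The pattern was serine, isoleucine, leucine or valine, any residue, tyrosine, any pair of residues, and isoleucine, leucine or valine. Fcgr2b had 1 match, Lilrb4a, Cd300a and Cd300lf had 2 each, and Pirb had 3. Fcgr3, Cd300lb, Cd200r3, Milr1 and Cd33 had none in the transcript read. The pattern is short, and 26.02% of 21482 protein-coding genes held a match under the same search. In the following stretches, from GENCODE M21 transcripts on GRCm38 and written 5′ to 3′ on the coding strand, the 18 bases of the motif are in capitals.
Fcgr2b (chr1:170961062-170961097, minus strand): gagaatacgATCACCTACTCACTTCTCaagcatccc
Lilrb4a (chr10:51496185-51496220, plus strand): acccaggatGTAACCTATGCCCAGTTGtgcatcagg
Pirb (chr7:3712777-3712812, minus strand): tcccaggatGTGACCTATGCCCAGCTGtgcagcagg
Cd300a (chr11:114901138-114901173, plus strand): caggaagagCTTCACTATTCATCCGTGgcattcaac
Cd300lf (chr11:115117103-115117138, minus strand): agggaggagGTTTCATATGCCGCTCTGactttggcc
For the receptors with more than 1 match, the second along the frame is printed. Of the 18 capital bases, 16 were identical between the printed stretches of Lilrb4a and Pirb, and their other pairs of matches shared 7 to 11. The printed stretches of Fcgr2b and Pirb shared 10. Fcgr2b and Cd300a shared 8.

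Total counts per library ranged from 13068078 (library 8) to 31781926 (library 13). The 9 mast cell markers checked (Kit, Fcer1a, Ms4a2, Cpa3, Tpsb2, Cma1, Mcpt4, Hdc and Gata2) were detected in every library, with summed levels of 84920 to 160000 CPM (counts per 1000000 counts of a library, its total scaled by a TMM factor). Library 15 stood apart, and libraries 7, 8 and 15 had the most genes with a count (34560, 35246 and 32814, against 16025 to 28790). The sum of 12 macrophage and dendritic cell markers was 7215 CPM there and at most 35.2 CPM in the other 13 libraries. Of these 12, Flt3, Cd209a, Cd207 and Itgax were not highest in library 15. They were at 1.27, 0.254, 0.152 and 2.64 CPM there and reached 1.68, 7.51, 2.67 and 7.10 CPM elsewhere. The sum of 4 monocyte markers was 4961 CPM in library 15 and at most 268 CPM elsewhere. Lyz2 gave 4838 CPM of it, and Ccr2 (108 CPM) and Ly6c2 (11.7 CPM) were also highest in library 15. Cx3cr1 was not, at 2.99 CPM against 5.39 to 25.6 CPM in libraries 7, 11, 13 and 14. C1qb, a complement gene of macrophages, reached 2262 CPM in library 15, and its highest level in the others was 7.69 CPM. Mast cell markers summed to 102800 CPM in library 15 and, in libraries 11, 13 and 14, to 129200 to 155400 CPM. None of these 12 markers was at 0 counts in library 15, nor in library 8, where they summed to 22.3 CPM, and 2 to 10 of them were in the other libraries. Several members are known to be expressed by macrophages, so values for the bone marrow group are also given without library 15. The share of counts from mitochondrial genes was 1.22% to 1.70% in untreated libraries, 2.39% to 3.96% in MC903 resident and 2.14% to 4.24% in bone marrow libraries. It thus moved with treatment, without overlap, and its part in the differences from untreated cells below was not tested.

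Levels of different genes were compared per kilobase of exon, and the order depends on the exon lengths used. These were 1736 bases for Fcgr3, 5227 for Lilrb4a and 5984 for Cd200r3. In CPM not divided by length, Cd200r3 had a higher mean than Fcgr3 in each group (547, 509 and 467 against 544, 427 and 413.5 CPM). Fcgr3 had a mean of 313.5 ± 52.6 CPM per kilobase in the untreated group (SD, n = 5). In the MC903 resident group it was at 246 ± 62.3 (SD, n = 5), and at 238 ± 154 in the bone marrow group (SD, n = 4). Per kilobase it was the highest of the 10 in each group, and its libraries did not overlap with those of the next gene. In untreated cells the order below it was Lilrb4a (101 CPM per kilobase), Cd200r3 (91.4), Fcgr2b (62.0), Pirb (46.05), Cd33 (35.2) and Milr1 (28.7). The ranges of Lilrb4a and Cd200r3 overlapped, as did those of each neighbouring pair from Fcgr2b to Milr1. Cd300lf and Cd300a were far lower, at 3.40 and 2.18 CPM per kilobase, with overlapping ranges. In MC903 resident cells Fcgr2b stood seventh, at 24.5 CPM per kilobase, and its range overlapped that of Cd33 (25.1). In these bulk libraries, fewer cells that express a gene and less RNA per cell cannot be told apart.

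Across all genes, a model of the 3 groups was fitted to the 14 libraries with edgeR, and genes with a Benjamini-Hochberg adjusted p under 0.05 over all 21014 genes tested were called. Of the 10 members 9 passed the filter on low counts, and Cd300lb did not. In MC903 resident against untreated resident cells, 0 of the 9 were called, beside 2.25% of all genes tested (0.571% higher, 1.68% lower). At an unadjusted edgeR p under 0.05 there were 4, beside 12.6% of all genes. DESeq2 called 1 (5.06% of all genes) and limma 2 (6.46%). Between bone marrow and MC903 resident cells, 0 of the 9 were called (background 2.27%, with 1.32% higher and 0.952% lower), with 1 at an unadjusted p under 0.05 (17.7% of all genes), 1 called by DESeq2 (8.14%) and 0 by limma (9.6%). Between bone marrow and untreated resident cells, 0 of the 9 were called (background 6.87%, with 3.49% higher and 3.37% lower), with 3 at an unadjusted p under 0.05 (21.3% of all genes), 2 called by DESeq2 (12.9%) and 4 by limma (10.4%). DESeq2 gave Fcgr2b no adjusted p in any comparison. The groups did not overlap for 1, 0 and 0 of the 9, beside 5.33%, 8.29% and 10.4% of all genes tested.

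Without library 15 the counts were 1, 0 and 2. The gene called in the first comparison was Fcgr2b, which was lower (background 2.43%, with 0.624% higher and 1.81% lower), and those in the third were Fcgr2b and Fcgr3, both lower (background 6.36%, with 2.95% higher and 3.41% lower). In the second comparison the background was 2.89%, with 1.35% higher and 1.54% lower. The median log2 fold change of the 9 members was -0.31, 0.030 and -0.23 in the 3 comparisons, against 0.24, -0.28 and -0.14 for all genes tested. Without library 15 the members' medians were -0.32, 0.115 and -0.29, and those of all genes 0.34, -0.84 and -0.62.

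**Figure D1:**
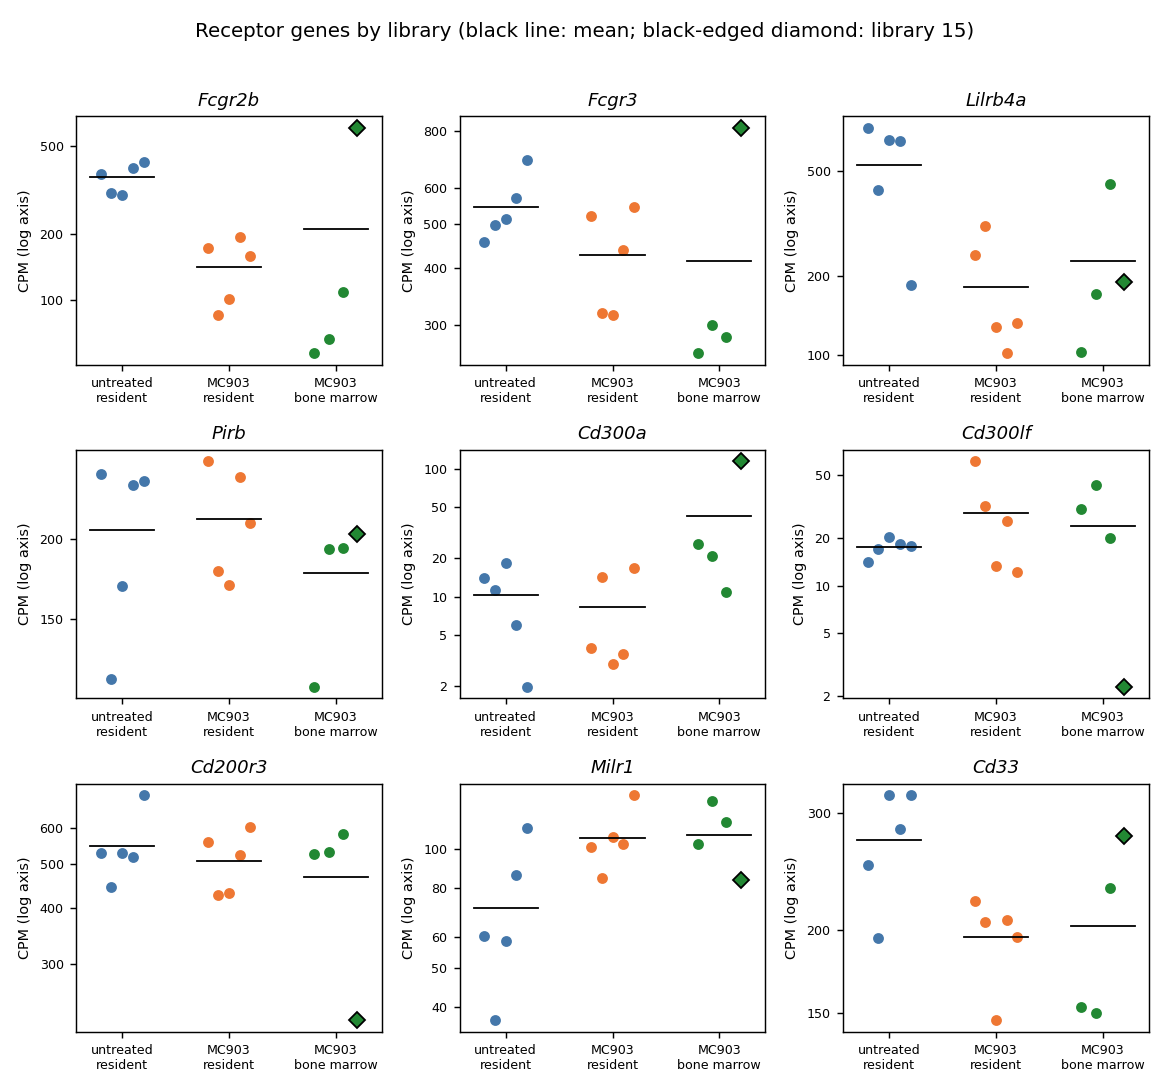
CPM (log axis, a scale per panel) of the 9 receptor genes that passed the filter, by group; each point is a library, the black line is the group mean and the black-edged diamond is library 15. All 5 MC903 resident libraries lie below all 5 untreated libraries for Fcgr2b (85.9 to 193 against 299.5 to 421 CPM), and library 15 is the highest of the 14 for Fcgr2b, Fcgr3 and Cd300a.

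Fcgr2b (ENSMUSG00000026656.15, GRCm38 chromosome 1, 170958617 to 170976547, minus strand) was the only member tested whose MC903 resident and untreated libraries did not overlap. It was at 372, 305, 299.5, 396 and 421 CPM in untreated libraries 1 to 5. In MC903 resident libraries 6 to 10 it was at 172, 85.9, 101, 193 and 158 CPM. In bone marrow libraries 11, 13, 14 and 15 it was at 57.7, 66.9, 109.6 and 602 CPM. Among bone marrow libraries, 11, 13 and 14 lay below every untreated library, and library 15 lay above all of them.

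With all libraries, the log2 fold change of Fcgr2b in MC903 resident against untreated resident cells was -1.34 (SE 0.558; edgeR adjusted p = 0.314). Without library 15, which belongs to neither of these groups but enters the shared estimate of the spread, Fcgr2b fell by 1.34 ± 0.229 (SE) on the log2 scale, with an edgeR adjusted p of 0.000982. When only these 2 groups were fitted, it differed by -1.31 ± 0.214 (edgeR adjusted p = 0.00191). Limma, which weights the libraries by their quality, called it with all libraries (-1.4, adjusted p = 0.00746). The difference kept its sign under the scaling alternatives, at -1.22 with DESeq2 size factors and -1.17 with TMM factors computed over the more abundant genes (mean level of 10 CPM or more). These scalings moved the median of all genes from 0.24 to 0.40 and 0.45.

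Relative to untreated resident cells, the log2 fold change of Fcgr2b in bone marrow cells was -0.78 ± 0.591 (SE, edgeR adjusted p = 0.512) with library 15. Without it, the difference was -2.20 ± 0.287 (edgeR adjusted p = 2.09e-05), and limma called it with all libraries (-1.85, adjusted p = 0.00212). Against MC903 resident cells the sign depended on library 15, with 0.56 ± 0.580 with it (edgeR adjusted p = 0.67) and -0.85 ± 0.268 without it (edgeR adjusted p = 0.0841). The part of the macrophage markers of library 15 in its Fcgr2b level was not tested.

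Fcgr3 (ENSMUSG00000059498.13, chromosome 1, 171051174 to 171064935, minus strand), which needs FcRγ for signalling, was at 455, 496, 511, 569 and 690.2 CPM in untreated libraries 1 to 5. In MC903 resident libraries it was at 519.7, 318, 315, 437 and 544 CPM, a range that overlapped with the untreated one. In bone marrow libraries 11, 13, 14 and 15 it was at 259, 300.0, 281.5 and 813 CPM. Libraries 11, 13 and 14 lay below every resident library of either treatment, and library 15 above all of them.

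Fcgr3 differed by -0.35 ± 0.269 (SE) on the log2 scale between MC903 resident and untreated resident cells (edgeR adjusted p = 0.693). Between bone marrow and untreated cells the difference was -0.40 ± 0.287 with library 15 (edgeR adjusted p = 0.478). Without library 15 it fell by 0.95 ± 0.215 on the log2 scale (edgeR adjusted p = 0.00675), and limma called it with all libraries (-0.72, adjusted p = 0.0405). Against MC903 resident cells the values were -0.045 ± 0.285 with library 15 (edgeR adjusted p = 0.955) and -0.60 ± 0.212 without it (0.107).

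**Figure D2:**
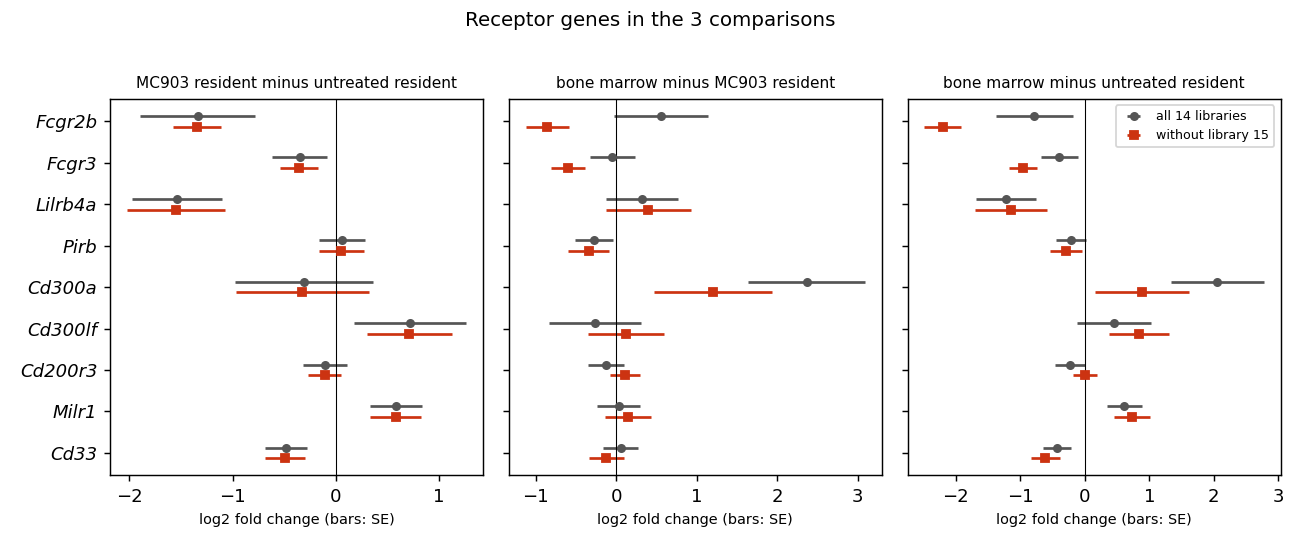
Log2 fold change (horizontal axis, bars are SE) of each receptor gene in the 3 comparisons, from the fit of all 14 libraries (grey circles) and the fit without library 15 (red squares). For Fcgr2b in bone marrow against untreated cells the estimate goes from -0.78 to -2.20 when library 15 is left out, and that of Cd300a goes from 2.06 to 0.88.

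The balance of the inhibitory over the activating IgG receptor was measured inside each library, where it does not depend on scaling between libraries. The log2 ratio of Fcgr2b to Fcgr3 counts, per exon length, was -2.03, -2.44, -2.51, -2.26 and -2.45 in untreated libraries 1 to 5. It was -3.33, -3.62, -3.38, -2.92 and -3.52 in MC903 resident libraries 6 to 10. In bone marrow libraries 11, 13, 14 and 15 it was -3.91, -3.902, -3.10 and -2.17. Every MC903 resident library lay below every untreated one. Of the bone marrow libraries, only 15 reached the untreated range.

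The mean log2 ratio differed by -1.02 between MC903 resident and untreated resident cells, which is 0.494-fold on the linear scale (exact two-sided permutation test, p = 0.00794, the smallest that 5 against 5 libraries can give; adjusted over 6 ratio tests, 0.0476). Bone marrow and untreated cells differed by -0.93 (exact permutation p = 0.0794, adjusted 0.238). Without library 15 it was -1.298 (exact permutation p = 0.0357, adjusted 0.107), the smallest p that 3 against 5 libraries can give. Bone marrow and MC903 resident cells differed by 0.085 with library 15 and by -0.28 without it (exact permutation p = 0.857 and 0.286). Of the distinct stretches of 50 bases in Fcgr3 transcripts, 10.2% also occur in Fcgr2b, and 4.48% of those of Fcgr2b occur in Fcgr3, so a small part of the reads of each could have been shared. The exon length used for Fcgr2b (5790 bases) includes every annotated transcript form, so the ratio itself is a relative value.

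**Figure D3:**
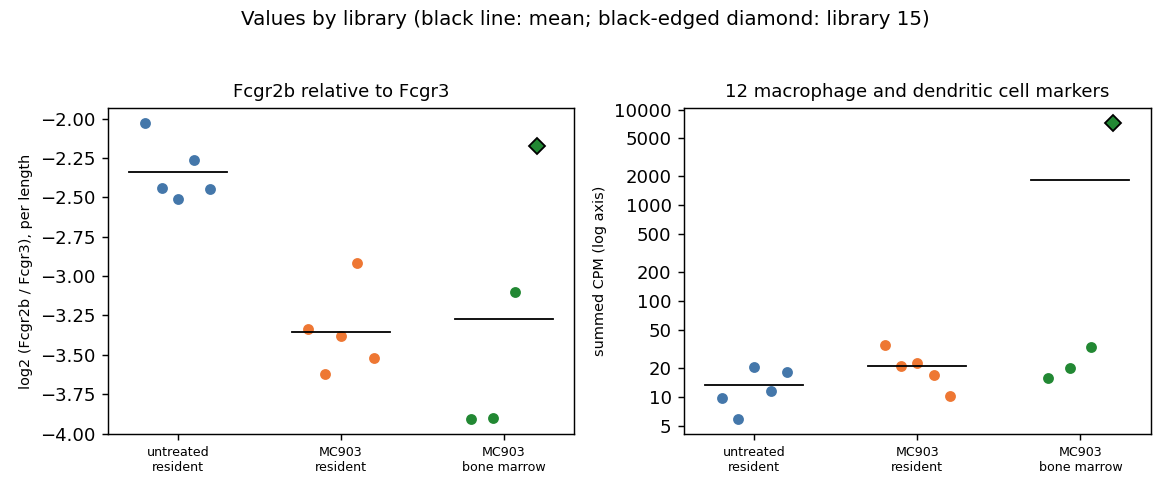
Left, log2 ratio of Fcgr2b to Fcgr3 per exon length in each library; right, summed CPM (log axis) of 12 macrophage and dendritic cell markers; black lines are group means and the black-edged diamond is library 15. The ratio is -2.51 to -2.03 in untreated and -3.62 to -2.92 in MC903 resident libraries, and the marker sum is 7215 CPM in library 15 against at most 35.2 CPM elsewhere.

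Lilrb4a (ENSMUSG00000112148.1, chromosome 10, 51490956 to 51496611, plus strand) encodes gp49B, an ITIM receptor of mast cells. It was at 731, 422.5, 658, 651 and 185.5 CPM in untreated libraries 1 to 5. The MC903 resident libraries held 240.1, 309, 129, 102 and 132 CPM, with 103, 170.5, 448 and 190.1 CPM in bone marrow libraries 11, 13, 14 and 15. Untreated library 5 lay inside the MC903 resident range, and the other 4 lay above it.

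The difference of Lilrb4a (log2, MC903 resident against untreated cells) was -1.54 ± 0.437 (SE, edgeR adjusted p = 0.0896). It was called by DESeq2 (-1.37, adjusted p = 0.0213) and limma (-1.53, 0.0221), and by edgeR without library 5 (-1.75, adjusted p = 0.0211), without library 14 (-1.55, 0.0424) and in a fit limited to those 2 groups (-1.504, 0.0223). When libraries were left out 1 at a time, its adjusted p ran from 0.0211 to 0.247. Bone marrow and untreated cells differed by -1.22 ± 0.466 (edgeR adjusted p = 0.14), and -1.15 ± 0.561 without library 15 (0.190). That difference was called by DESeq2 (-1.24, adjusted p = 0.034), by limma (-1.45, 0.0345) and by edgeR without library 5 (-1.43, 0.0451) or library 14 (-1.79, 0.0291). Against MC903 resident cells the values were 0.32 ± 0.452 with library 15 (edgeR adjusted p = 0.768) and 0.401 ± 0.532 without it (0.659). The counts of Lilrb4a are uncertain, because 94.5% of its stretches of 50 bases occur in some other gene and 92.5% in the read-through gene Gm49339. Of its exon length, 35.3% is also annotated to Gm49339, which held 1 count in all 14 libraries, so the level of Lilrb4a may be understated if reads falling in more than 1 gene were dropped.

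Its neighbour Lilr4b (gp49A, which lacks the motif) was more abundant, with 2865 ± 448 CPM in untreated (SD, n = 5), 1170 ± 284 in MC903 resident (SD, n = 5) and 1312 ± 802 in bone marrow libraries (SD, n = 4). It fell by 1.29 ± 0.260 (SE) on the log2 scale in MC903 resident cells (edgeR adjusted p = 0.00676), with no overlap between libraries, a call lost without library 9 (-1.11, 0.0509) and with TMM over abundant genes (-1.075, 0.055). It fell by 1.13 ± 0.278 in bone marrow against untreated cells (edgeR adjusted p = 0.0148), where library 14 stood at 2488 CPM. Without library 15 the second difference was -1.07 ± 0.304 (0.0380), and its call was lost without libraries 7, 8 and 15 (-1.085, edgeR adjusted p = 0.0510). The log2 ratio of Lilrb4a to Lilr4b differed by -0.21 between MC903 resident and untreated cells (exact permutation p = 0.556). Of the stretches of 50 bases in Lilrb4a, 28.5% also occur in Lilr4b, so the values of this pair are not fully separate.

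Pirb (ENSMUSG00000058818.13, chromosome 7, 3711409 to 3720391, minus strand), the inhibitory paired immunoglobulin-like receptor, was not called in any comparison, with 206 ± 58.1 CPM in untreated (SD, n = 5), 214 ± 41.65 in MC903 resident (SD, n = 5) and 177 ± 39.6 in bone marrow libraries (SD, n = 4). Its log2 fold changes were 0.058 ± 0.221, -0.28 ± 0.235 and -0.22 ± 0.235 (SE) in the 3 comparisons (edgeR adjusted p = 0.96, 0.577 and 0.662). Without library 15 the differences of bone marrow cells were -0.34 ± 0.253 from MC903 resident and -0.29 ± 0.252 from untreated cells (0.3595 and 0.454). Reads of Pirb are uncertain, because 37.3% of its stretches of 50 bases occur in other genes.

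The CD300 genes lie close together on chromosome 11. Cd300a (ENSMUSG00000034652.12, 114890041 to 114904654, plus strand) encodes an ITIM receptor that binds phospholipids of dying cells. The untreated libraries held 14.1, 11.3, 18.4, 5.98 and 1.97 CPM, and the MC903 resident ones 3.96, 14.3, 2.97, 3.55 and 16.9 CPM. In bone marrow libraries 11, 13, 14 and 15 it was at 25.6, 20.8, 10.85 and 114.7 CPM. Libraries 11 and 13 also lay above every resident library, and library 14 lay among them.

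The log2 fold change of Cd300a in bone marrow against MC903 resident cells was 2.37 ± 0.723 (SE, edgeR adjusted p = 0.0957), and 1.204 ± 0.728 without library 15 (0.251). Against untreated cells it was 2.06 ± 0.716 (edgeR adjusted p = 0.0936), and 0.88 ± 0.729 without library 15 (0.431). Both were called without library 14 (edgeR adjusted p = 0.0480 and 0.0451), by DESeq2 (adjusted p = 0.0277 and 0.0317) and by edgeR without the filter (adjusted p = 0.000735 and 0.00365). The macrophage markers of library 15 move with these values, and their part was not tested.

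Cd300lf (ENSMUSG00000047798.15, 115116214 to 115133992, minus strand), a further ITIM receptor, went the other way in library 15. It was at 30.6, 43.1, 20.2 and 2.28 CPM in bone marrow libraries 11, 13, 14 and 15, so that library 15 was the lowest of the 14. Untreated libraries lay between 14.2 and 20.4 CPM, and MC903 resident libraries between 12.3 and 61.3 CPM, with library 6 the highest. No comparison was called, with edgeR adjusted p-values of 0.686, 0.860 and 0.721. Bone marrow cells differed by -0.26 ± 0.575 from MC903 resident and by 0.46 ± 0.571 from untreated cells on the log2 scale, and without library 15 by 0.126 ± 0.4703 and 0.84 ± 0.464. Cd300lb (ENSMUSG00000063193.8, 114922781 to 114934386, minus strand), an activating member that uses DAP12, had 252 counts in library 13, 328 in library 15 and 19 in library 6, and at most 4 in any other library. In the 7 libraries with 0 counts, that number allows a level of up to 0.123 to 0.174 CPM, for counting error only.

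Cd200r3 (ENSMUSG00000036172.17, chromosome 16, 44943678 to 44981380, plus strand) encodes an activating receptor of mast cells and basophils that signals through DAP12. It was at 530.2, 444.5, 529.5, 518 and 713 CPM in untreated, 561, 426, 430.0, 524 and 604 CPM in MC903 resident, and 528, 533, 583 and 224 CPM in bone marrow libraries. Apart from library 15, the lowest of the 14, the ranges of the groups overlapped. The log2 fold change in MC903 resident against untreated cells was -0.10 ± 0.215 (SE, 95% interval -0.53 to 0.32, edgeR adjusted p = 0.919), and its sign turned under both scaling alternatives. Without library 15 the difference between bone marrow and untreated cells was 0.005 ± 0.185 (edgeR adjusted p = 1), and with it -0.23 ± 0.229 (0.636). From MC903 resident cells bone marrow cells differed by -0.125 ± 0.229 with library 15 (0.828) and 0.115 ± 0.185 without it (0.721).

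Milr1 (ENSMUSG00000040528.15, chromosome 11, 106751226 to 106768794, plus strand) encodes Allergin-1, which inhibits IgE signalling in mast cells. It was at 60.4, 37.0, 58.6, 85.8 and 113 CPM in untreated libraries. In MC903 resident libraries it was at 101, 84.4, 107, 103 and 137 CPM, and in bone marrow libraries 11, 13, 14 and 15 at 103, 132, 117 and 83.5 CPM. Untreated libraries 1, 2 and 3 lay below every library of treated mice, and libraries 4 and 5 overlapped with them. Milr1 differed by 0.59 ± 0.254 (SE) on the log2 scale in MC903 resident cells (edgeR adjusted p = 0.309) and 0.61 ± 0.267 in bone marrow cells against untreated ones (0.181). The second was called by limma (0.86, adjusted p = 0.0395) and by edgeR without library 5 (0.85, adjusted p = 0.0434), and was 0.73 ± 0.279 without library 15 (0.123). Bone marrow and MC903 resident cells differed by 0.030 ± 0.268 with library 15 and 0.146 ± 0.282 without it.

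Cd33 (ENSMUSG00000004609.11, chromosome 7, 43524216 to 43544428, minus strand), a lectin that binds sialic acid, was at 273 ± 52.4 CPM in untreated (SD, n = 5), 195.0 ± 28.8 in MC903 resident (SD, n = 5) and 203 ± 62.0 in bone marrow libraries (SD, n = 4). The log2 fold changes against untreated cells were -0.49 ± 0.204 and -0.43 ± 0.217 (SE; edgeR adjusted p = 0.287 and 0.266). Without library 15 the second was -0.61 ± 0.224 (edgeR adjusted p = 0.108). It was called in a fit added after seeing the data, without library 15 but with the genes tested as before (-0.77, 0.0432). Bone marrow and MC903 resident cells differed by 0.057 ± 0.216 with library 15 and -0.122 ± 0.2201 without it. Untreated library 2, at 194 CPM, lay inside the MC903 resident range of 146 to 221 CPM.

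The receptors depend on adaptors, kinases and phosphatases, of which a list of 19 genes was examined, all of them tested. In MC903 resident against untreated cells edgeR called 0 (2.25% of all genes), with 4 at an unadjusted p under 0.05 (12.6% of all genes). It also called 0 in bone marrow against MC903 resident cells (2.27%), with 3 at an unadjusted p under 0.05 (17.7%). Between bone marrow and untreated cells 1 was higher and 2 were lower, beside 3.49% and 3.37% of all genes, and 9 had an unadjusted p under 0.05 (21.3% of all genes). The list median was 0.24 in that comparison, against -0.14 for all genes. Without library 15, 2 were higher and 1 was lower (2.95% and 3.41% of all genes), with a median of 0.077 against -0.62 for all genes. That fit also changed the number of genes tested, to 24370 from 21014. With library 15 left out and the genes tested as before, Hcst was not called and Cblb stayed called, with values given below.

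Tyrobp, which encodes the adaptor DAP12, was the higher one. It was at 507 ± 80.5 CPM in untreated (SD, n = 5), 717 ± 77.7 in MC903 resident (SD, n = 5) and 1074 ± 288 in bone marrow libraries (SD, n = 4). It rose by 1.08 ± 0.182 (SE) on the log2 scale in bone marrow against untreated cells (edgeR adjusted p = 0.000605). Library 15 was the highest at 1485 CPM, and without it the difference was 0.89 ± 0.172 (edgeR adjusted p = 0.00173). All MC903 resident libraries also lay above all untreated ones (635 to 815 against 430 to 633 CPM), without a call (log2 fold change 0.50, edgeR adjusted p = 0.161). That difference was called by DESeq2 (0.645, adjusted p = 0.0249), by limma (0.565, 0.0169) and by edgeR with TMM over abundant genes (0.70, 0.0362). The bone marrow libraries lay above all MC903 resident ones too (0.58, edgeR adjusted p = 0.101), a difference called by limma (0.44, 0.0379) and by edgeR without the filter (0.645, 0.0219). Hcst, which encodes the related adaptor DAP10, had 50.3 ± 14.6 CPM in untreated and 92.6 ± 27.2 CPM in bone marrow cells. Its difference of 0.88 on the log2 scale had an edgeR adjusted p of 0.0712, and it was called without library 15 (1.06, 0.0257) and without library 5 (1.01, 0.0432). With library 15 left out but the genes tested as before, it was not called (0.89, edgeR adjusted p = 0.0649). Of 8 other settings 4 called Hcst, among them DESeq2 (0.87, adjusted p = 0.0290) and limma (1.03, 0.0269). Fcer1g, the adaptor of Fcgr3 and FcεRI, was not called, at 1648 ± 341, 2055 ± 384 and 2010 ± 122 CPM in the 3 groups.

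The 2 lower genes were Fyn and Cblb. Fyn, a Src family kinase that acts downstream of FcεRI, was at 248 ± 39.9 CPM in untreated, 182 ± 31.5 in MC903 resident and 106 ± 43.6 in bone marrow cells. It fell by 1.22 ± 0.260 (SE) on the log2 scale in bone marrow against untreated cells (edgeR adjusted p = 0.00472), and by 0.98 ± 0.225 without library 15 (0.00765), where it was at 48.5 CPM. Cblb, a ubiquitin ligase that dampens receptor signalling, fell by 1.02 ± 0.282 (edgeR adjusted p = 0.0309), a call lost without library 15 (-0.84, 0.0932) and without any 1 of libraries 1, 2, 3, 4 and 11 (0.0538 to 0.0679). Of 8 other settings 5 called Cblb, among them library 15 left out with the genes tested as before (-0.99, edgeR adjusted p = 0.0332). EdgeR did not call it without the filter (-1.0, adjusted p = 0.0917), in the 2 groups alone (-1.03, 0.0634) or without libraries 7, 8 and 15 (-0.85, 0.0894). Lyn, which phosphorylates both ITIMs and FcεRI, was at 237 ± 18.9 in untreated and 155 ± 17.4 CPM in MC903 resident cells with no overlap. Lyn differed by -0.61 ± 0.164 on the log2 scale (edgeR adjusted p = 0.0553), and it was called without library 15 (-0.62, 0.0454) and without library 5 (-0.65, 0.0323). Of 8 other settings 4 called it, among them DESeq2 (-0.476, adjusted p = 0.0193), limma (-0.641, 0.00796) and edgeR on the 2 groups alone (-0.58, 0.0357). EdgeR did not call it with DESeq2 size factors (-0.476, adjusted p = 0.117), with TMM over abundant genes (-0.426, 0.159) or without the filter (-0.647, 0.158).

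Of the 4 phosphatase genes listed, none was called in any of the 3 comparisons by edgeR, where 2.25%, 2.27% and 6.87% of all genes were called. Ptpn6, which encodes SHP-1, was at 330.5 ± 59.9, 369 ± 76.0 and 338 ± 56.55 CPM in untreated resident, MC903 resident and bone marrow cells. Inpp5d, which encodes SHIP-1, the main partner of FcγRIIB, was at 479 ± 99.6, 396 ± 85.6 and 415 ± 83.4 CPM. Ptpn11 (SHP-2) and Inppl1 (SHIP-2) were lower, with group means of 22.8 to 27.5 and 4.005 to 7.72 CPM. The log2 fold changes of Ptpn6 lay between -0.13 and 0.16, with SE of 0.182 to 0.193.

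**Figure D4:**
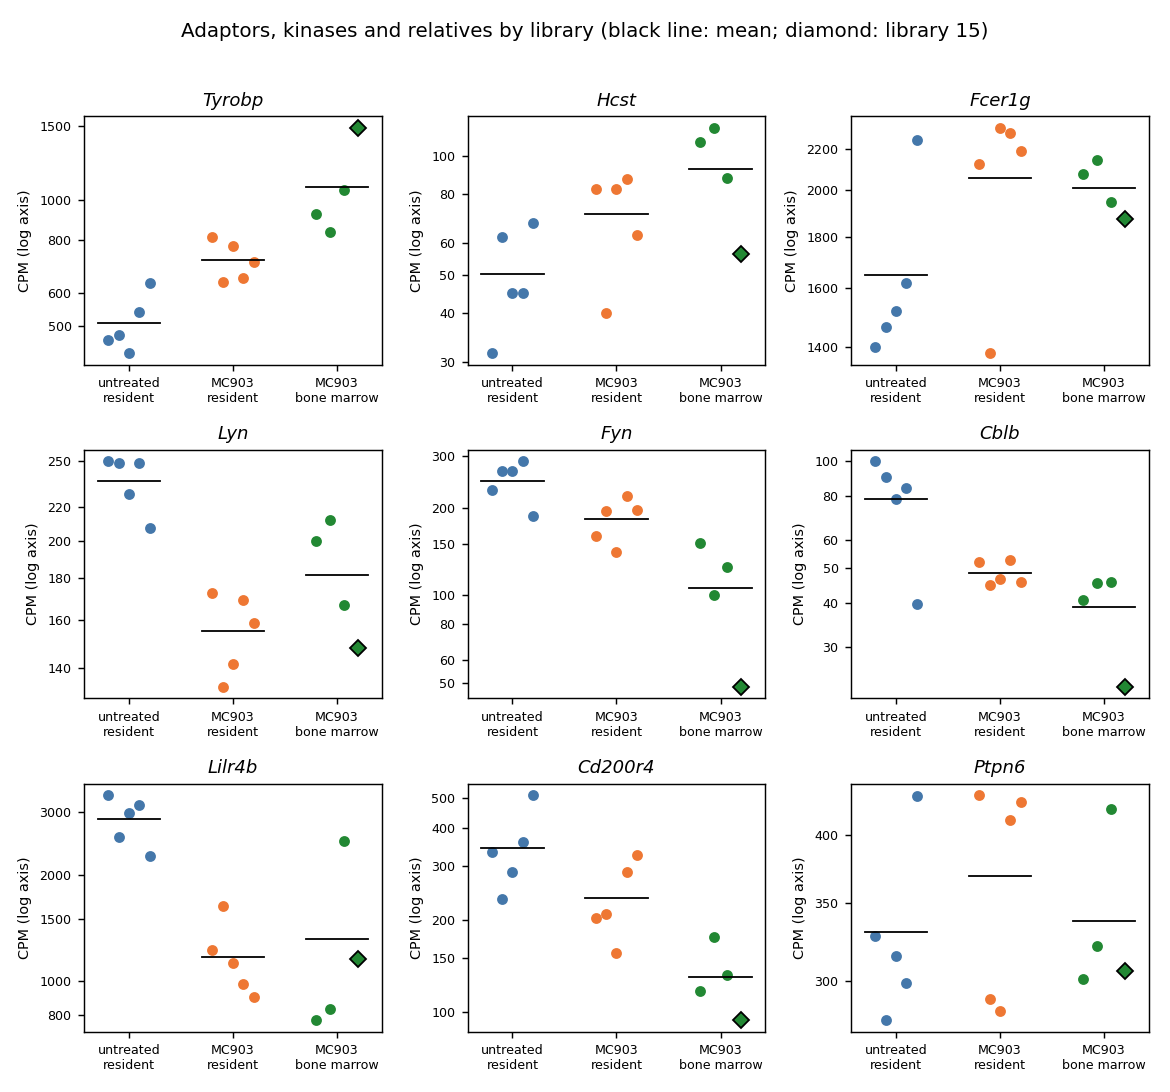
CPM (log axis, a scale per panel) of adaptors, kinases, the phosphatase Ptpn6 and 2 relatives of the receptors, by group; each point is a library, the black line is the group mean and the black-edged diamond is library 15. Tyrobp is at 836 to 1485 CPM in bone marrow and 430 to 633 CPM in untreated libraries, and Fyn at 48.5 to 151 against 187 to 288 CPM.

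Among other genes of the same families, of 33 listed symbols 25 were found in the table and 15 were tested. Lilr4b was called in MC903 resident cells, and Lilr4b and Cd200r4 were called in bone marrow against untreated cells, all lower, beside 1.68% and 3.37% of all genes called lower. Cd200r4, an activating relative of Cd200r3, was at 344 ± 105 CPM in untreated (SD, n = 5), 236 ± 68.1 in MC903 resident (SD, n = 5) and 130.2 ± 34.8 in bone marrow libraries (SD, n = 4). It fell by 1.403 ± 0.259 (SE) on the log2 scale between untreated and bone marrow cells (edgeR adjusted p = 0.00144), and by 1.27 without library 15 (0.00374). Its difference between bone marrow and MC903 resident cells was -0.86 (edgeR adjusted p = 0.0884; 0.108 when library 15 was left out, at -0.72). This difference was called without library 8 or 13 and under 5 other settings, among them DESeq2 (-0.99, adjusted p = 0.00282). Fcgr1, which encodes the high-affinity IgG receptor, reached 30.8 CPM in library 15 and 0.387 CPM elsewhere, and Cd300ld 103.8 against 2.61 CPM; both were named after their values were seen. The median log2 fold change of the 15 family genes tested was 0.951 in MC903 resident against untreated cells (0.24 for all genes). In bone marrow against untreated cells it was 1.86 with library 15 (-0.14 for all genes) and -1.43 without it (-0.62). Outside library 15, 11 of these 15 genes stayed under 10 CPM in every library.

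Among 15 further receptors, listed for their known or proposed inhibitory roles and not searched for the motif, 12 were tested, and Pecam1 and Havcr2 were called, both higher in bone marrow than in untreated cells, beside 3.49% of all genes called higher. Pecam1 was at 0.85, 0.164, 2.52, 0 and 0.804 CPM in untreated libraries, 2.81 to 6.76 CPM in MC903 resident libraries and 35.9, 39.9, 7.48 and 9.79 CPM in bone marrow libraries. The groups did not overlap, and Pecam1 rose by 4.73 ± 1.01 on the log2 scale (SE, edgeR adjusted p = 0.00483), or 4.99 without library 15 (0.00258). Havcr2, which encodes TIM-3, had 17.4 ± 9.18 CPM in untreated and 47.2 ± 8.94 CPM in bone marrow cells. It rose by 1.44 ± 0.434 on the log2 scale (edgeR adjusted p = 0.0481), a call lost without library 15 (1.48, 0.0608) and without any 1 of libraries 1, 2, 4, 5, 9, 10, 11, 13 and 14 (0.0531 to 0.113).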

How the data were processed

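RNA of sorted mouse mast cells was made into cDNA with SMART-Seq HT and into libraries with Nextera XT, per the labels' protocols. The authors deposited raw read counts per gene as whole numbers. STAR, featureCounts and mm10 are named in the submitters' processing notes; versions, strand setting and treatment of shared reads are not given in the sources used here. Of 55487 identifiers, 55094 had the same version, start and end in GENCODE M21 (GRCm38). Amplified reads carry no molecular identifiers. Counts were filtered with filterByExpr (minimum count 10, total 15), scaled by TMM and fitted with edgeR 4.0.16 (glmQLFit robust, glmQLFTest, R 4.3.3) over 3 groups. The fitting code was run on simulated data with the same dispersion for every gene, below the common dispersion of 1.33 in these data. That run checked the code and cannot show how well the fits suit these libraries. Each standard error was taken as the size of the fold change on the log2 scale divided by the root of its F statistic. Alternatives used DESeq2 1.42.0 and limma 3.58.1. The log2 ratios used counts plus 0.5. The members, lists and tests were chosen with earlier results of these data known. Named genes were all members, list genes called in a comparison, adaptors and phosphatases; Lyn, C1qb, Fcgr1 and Cd300ld were added after their values were seen. The 3 genes with the most similar pattern to each member were ranked by Pearson correlation over 14 libraries.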

Additional observations from a re-analysis of the deposited data

Results flagged for a closer look

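In 81 groups of 4 or 5 libraries, 10 had a library far from the others by Dixon's test, which chance gives in about 1 of 20 groups. In bone marrow cells, library 15 was far above the others for Fcgr2b (602 CPM against 57.7 to 109.6), Fcgr3 (813 against 259 to 300.0) and Cd300a (114.7 against 10.85 to 25.6). It was far below them for Cd200r3 (224 against 528 to 583 CPM). Library 11 was low for Pirb (118 against 193 to 203 CPM), and library 14 was high for Ptpn6 (421.5 against 301.5 to 322 CPM). In MC903 resident cells, library 7 was low for Fcer1g (1380 against 2122 to 2307 CPM) and library 6 was high for Cd300lb (0.990 CPM against at most 0.258). In untreated cells, library 5 was high for Fcer1g (2241 against 1399 to 1618 CPM) and low for Inpp5d (306 against 505 to 561 CPM).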

How the results depend on the processing

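No paired analysis was possible because no replicate number is shared between groups. The number of the 10 receptor genes called was 0 in each comparison. In MC903 resident against untreated cells it was 1 with DESeq2, 2 with limma voomWithQualityWeights and 2 in a fit of those 2 groups alone (4.17% of all genes called), 0 to 1 when 1 library was left out (1.53% to 2.55%), and 1 without libraries 7, 8 and 15 (1.35%). In bone marrow against MC903 resident cells it was 1 without the filter (1.54%) and with DESeq2 (Cd300a), 0 to 1 when 1 library was left out (1.31% to 2.89%), and 2 without libraries 7, 8 and 15 (1.8%). In bone marrow against untreated cells it was 2 without the filter (Cd300a and Cd300lb, 3.31%), 2 with DESeq2, 4 with limma, 0 to 3 when 1 library was left out (4.74% to 7.69%), and 2 without libraries 7, 8 and 15 (7.48%). Without library 15 and with the genes tested as before it was 1, 0 and 3 (3.25%, 3.07% and 7.8%). The fits without libraries 7, 8 and 15, and the latter, were chosen after seeing the data, and libraries 7 and 8 hold the lowest Fcgr2b and Fcgr3 levels of the MC903 resident group, so the counts without them rest on that choice. Scaling by DESeq2 size factors or by TMM over abundant genes called no member. The cause of these changes was not tested. The following differences turned sign. Cd200r3 in MC903 resident against untreated cells became 0.028 with DESeq2 size factors and with DESeq2, 0.081 with TMM over abundant genes and 0.044 without libraries 7, 8 and 15. Against MC903 resident cells, bone marrow Cd33 became -0.080 with DESeq2 size factors and with DESeq2, -0.083, -0.082 and -0.041 with TMM over abundant genes, limma and the 2 groups alone, -0.238 without libraries 7, 8 and 15, and -0.231 without library 15 on the genes tested before. Milr1 became -0.12 with DESeq2 size factors and with DESeq2, -0.13 with TMM over abundant genes and -0.076 with the 2 groups alone. Fcgr2b became -0.451 with limma, -1.176 without libraries 7, 8 and 15 and -0.96 without library 15 on the genes tested before, and Fcgr3 0.011 without the filter. When 1 library was left out in turn, differences between MC903 resident and untreated cells ran from -0.166 to 0.014 for Cd200r3, from -0.733 to 0.013 for Cd300a and from -0.07 to 0.232 for Pirb. Those between bone marrow and MC903 resident cells ran from -0.241 to 0.115 for Cd200r3, from -0.742 to 0.126 for Cd300lf, from -0.122 to 0.155 for Cd33, from -0.855 to 0.86 for Fcgr2b, from -0.597 to 0.106 for Fcgr3, from -0.239 to 0.539 for Lilrb4a and from -0.103 to 0.146 for Milr1. Those between bone marrow and untreated cells ran from -0.35 to 0.005 for Cd200r3 and from -0.003 to 0.837 for Cd300lf. The log2 ratio of Fcgr2b to Fcgr3 differed by -1.128 to -0.941 between MC903 resident and untreated cells, with an adjusted exact permutation p of 0.0952 in all 10 cases, since fewer libraries cannot give a smaller one, and by -0.281 to 0.298 between bone marrow and MC903 resident cells. The ratio of Lilrb4a to Lilr4b differed by -0.254 to 0.119 between bone marrow and untreated cells. Over all genes, DESeq2 called 1063, 1711 and 2707 and limma 1358, 2017 and 2194 in the 3 comparisons, against 473, 477 and 1443. With DESeq2 size factors the calls were 207 higher and 294 lower in the first comparison (120 and 353 with TMM) and 167 and 242 in the second (277 and 200 with TMM).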

Other observations

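The genes whose levels ran most closely with each receptor over the 14 libraries are given as a description, since these libraries share their groups and library 15. Fcgr2b ran with Cmtm3 (Pearson r of log2 CPM 0.917, and 0.905 without library 15), Anxa4 (0.916 and 0.896) and Cndp2 (0.909 and 0.907). Fcgr3 ran most closely with Fcgr2b (0.907 and 0.881), and Lilrb4a with its neighbour Lilr4b (0.914 with and without library 15). Milr1 ran with Rab21 (0.908 and 0.909) and Cd33 with Cep170 (0.891 and 0.899). Some likenesses rested more on library 15, as for Cd200r3 with Coq10a (0.9, and 0.613 without it) and Cd300lf with Spout1 (0.867 and 0.576). Bone marrow library 11 had the highest sum of 3 basophil markers (1021 CPM, against 68.7 to 258 CPM in the others), of which the protease gene Mcpt8 gave 980.2 CPM. The other 2 markers were not highest there, with Itga2 at 36.1 CPM (53.1 to 140.5 CPM in resident libraries) and Prss34 at 4.78 CPM (42.2 CPM in library 7).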
